A study of Mus musculus with 14 samples.

Results

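Among the cells of mouse hindbrain at embryonic day E18.5, 687 differentiated pontine neurons high in Ephb1 were described. They were selected on their measured UMI counts (unique molecular identifiers, each standing for 1 captured RNA molecule). A cell had to hold at least 1000 genes and under 10% mitochondrial UMIs, at least 20 UMIs of Mapt, at least 1 of Barhl1 and at least 1 of Hoxb2, Hoxb3 and Hoxb4 together, and none of En2 or Nhlh1. It also had to hold at least 3 UMIs of Ephb1, at most 2 of Prox1 and at most 1 of Hoxb5. The 687 cells were part of 2684 differentiated pontine neurons that met the first 5 gene limits, of 55054 kept E18.5 cells and of 122658 kept cells in the 14 libraries of the series. The remaining differentiated neurons fell into 4 classes: 345 Prox1-high cells, 355 Hoxb5-high cells, 366 cells over more than 1 of these limits and 931 cells over none of them. Since the genes of the limits chose the cells, their levels are no finding, and the levels of other genes against the other classes are a description without a test.

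The study asked how partial loss of Atoh1, the transcription factor of the rhombic lip precursors, affects the neurons of the pontine nuclei. Control embryos were Atoh1Cre/+; Rosalsl-tdTomato/+ and Atoh1S193A/- embryos were Atoh1Cre/S193A; Rosalsl-tdTomato/+, all on the C57BL/6J strain. Cre replaces the coding region of Atoh1 in that allele, so that controls also carried 1 null copy, and tdTomato marked every cell of the Atoh1 lineage, not pontine neurons alone. Living tdTomato-positive cells were sorted from the whole hindbrain of 1 embryo per library, with 3 control libraries and 3 Atoh1S193A/- libraries at E18.5, each mutant collected with a littermate control. Libraries of the same replicate number were taken as littermate pairs. S193A is a substitution that 3' UMI counts do not read, so that no Atoh1 level checks the labels here. The libraries held between 108239001 and 183911797 UMIs. Members numbered 69, 93 and 185 in the control libraries and 157, 57 and 126 in the Atoh1S193A/- libraries, and their median depth per library was between 17198.5 and 24745 UMIs. Library pairs shared between 20 and 49 cell barcodes, at most 0.484% of the smaller library. Scrublet, a doublet caller, was not used to remove cells, and the 7.5% of cells with its highest scores in each library took 40 of the 687 members.

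Pontine neurons are born in the caudal rhombic lip, migrate along the surface of the hindbrain to the ventral pons and send glutamatergic mossy fibers to the cerebellum, relaying signals of the cerebral cortex. Their Hox genes mark the rhombomere from which they came. Ephb1 is a receptor tyrosine kinase for ephrin-B ligands, a contact-dependent system that guides migrating cells and growing axons. Sst encodes somatostatin, an inhibitory neuropeptide that is stored in dense core vesicles and released beside the fast transmitter. Ebf1 is a transcription factor of early neuronal differentiation, and Pcp4 is a small protein that modulates calmodulin.

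In GRCm38 (GENCODE M21), Ephb1 lies at chr9:101922128-102354693 on the minus strand, Sst at chr16:23889573-23890958 on the minus strand, Ebf1 at chr11:44617317-45008091 on the plus strand and Pcp4 at chr16:96467606-96525793 on the plus strand. Outside the genes of the limits, Sst stood furthest above the other classes among genes at 50 CPM or more, and its promoter is known for the cyclic AMP response element (CRE), TGACGTCA, the binding sequence of CREB. The 250 bases before each RefSeq gene start (GRCm38.p6) were therefore searched for these letters. The 30 bases around them are shown for Sst (chr16:23890874-23890903, minus strand) and for Scg2, a dense core vesicle gene of the same cells that holds them too (chr1:79440076-79440105, minus strand), and the whole 250 bases for Ephb1, which does not (chr9:102354694-102354943, minus strand). Capitals mark TGACGTCA.
Sst: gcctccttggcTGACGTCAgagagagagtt
Scg2: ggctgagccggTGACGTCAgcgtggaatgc
Ephb1: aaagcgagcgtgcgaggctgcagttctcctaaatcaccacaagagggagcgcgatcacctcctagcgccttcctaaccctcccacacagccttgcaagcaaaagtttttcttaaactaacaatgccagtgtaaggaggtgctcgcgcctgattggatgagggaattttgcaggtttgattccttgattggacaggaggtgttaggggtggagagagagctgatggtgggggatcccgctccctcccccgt
The letters lay 48 to 41 bases before the RefSeq start of Sst and 68 to 61 bases before that of Scg2. The annotations differ in these starts: in GENCODE M21 both genes begin further upstream, and the letters are bases 67 to 74 of the Sst gene and 27 to 34 of the Scg2 gene, in the annotated 5′ UTR. Searched on both strands, TGACGTCA was found in 508 of 32851 promoters of this length, or 1.55%. Of 25 neuropeptide and dense core vesicle genes, 19 had a promoter entry, with 21 promoters, and 5 of these held it: those of Cartpt, Chgb, Pcsk1, Scg2 and Sst. Of the 15 genes highest in Ephb1-high cells, 9 had an entry, with 12 promoters, and Sst alone among these 9 held it. The letters CCCNNGGG, the core bound by EBF proteins, were found in 11.8% of all promoters, in 9 of the 21 peptide gene promoters and in 0 of the 12 promoters of the highest genes. These are matches of letters and show no binding.

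The label fitted the data at the level of the class. Sst stood at 659, 383 and 627 CPM (UMIs of a gene as a share of all UMIs in the members of that library, scaled to the same total in each) in the members of the 3 control libraries and at 525, 402 and 473 CPM in those of the 3 Atoh1S193A/- libraries. The other 4 classes together held between 129 and 243 CPM, so that the ranges did not overlap. By class, Sst ranged from 22.5 to 371 CPM in Prox1-high cells, from 19.1 to 95 CPM in Hoxb5-high cells and from 130 to 269 CPM in cells over none of the limits, without overlap with the members. In cells over more than 1 limit it ranged from 63.0 to 428 CPM, which overlapped the lowest Ephb1-high libraries. Ebf1 was at 720, 572 and 719 CPM in control members and 486, 463 and 599 CPM in Atoh1S193A/- members, above 232 to 311 CPM in the other 4 classes. Pcp4 was the most variable of the given markers between libraries. It stood at 416, 160 and 330 CPM in control members and 153, 197 and 258 CPM in Atoh1S193A/- members, above 45.6 to 140 CPM in the other classes together. Hoxb5-high cells held 73.7 to 297 CPM of Pcp4 and overlapped them, so that Pcp4 separated the members from Prox1-high cells, at 7.28 to 56.8 CPM, but not from Hoxb5-high cells.

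**Figure D1:**
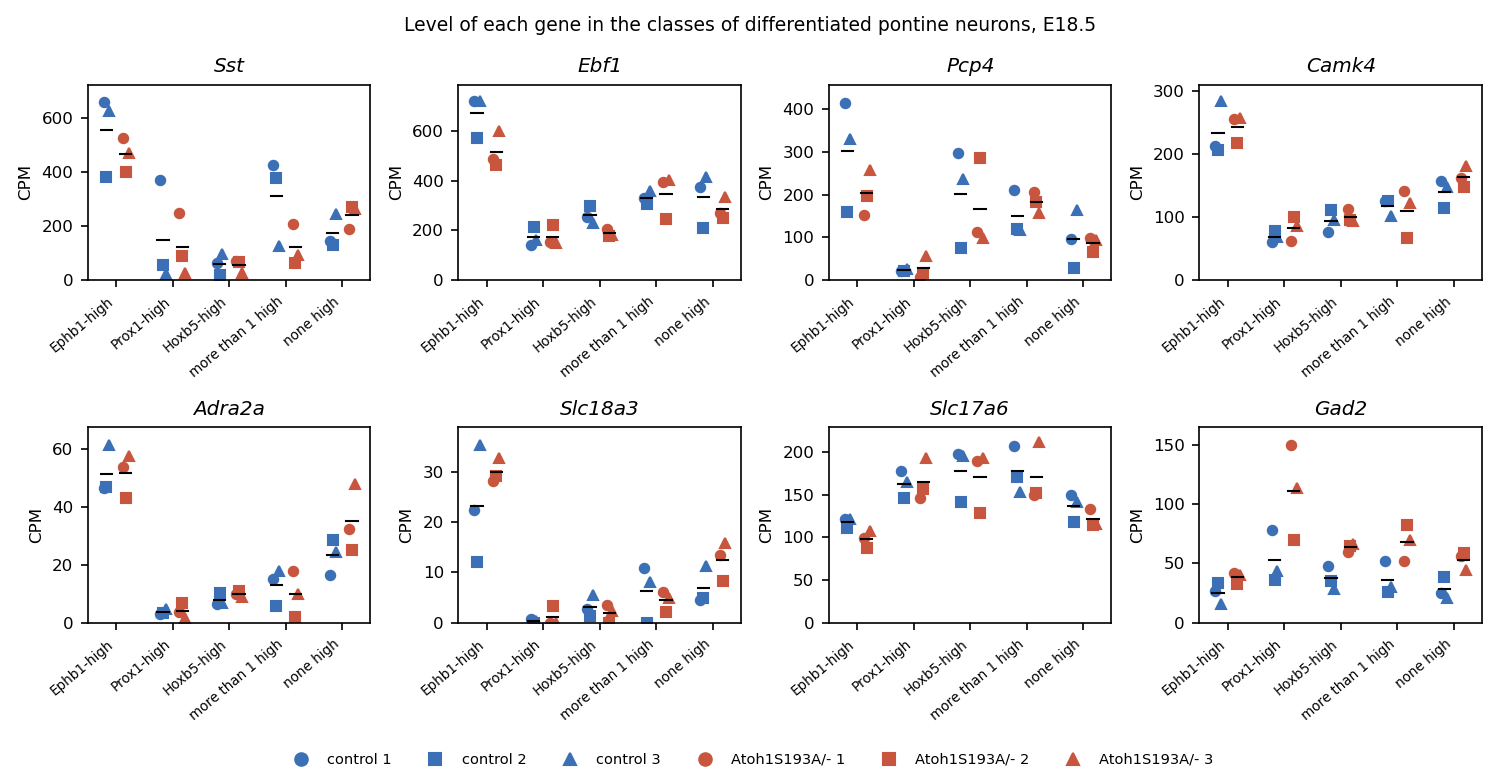
Level of 8 genes (CPM of summed UMIs, linear axis) in each class of differentiated pontine neurons at E18.5. Each point is 1 library, blue for control and red for Atoh1S193A/-, and the bar is the mean of 3 libraries. Sst, Ebf1, Camk4, Adra2a and Slc18a3 are higher in Ephb1-high cells than in Prox1-high and Hoxb5-high cells, while Slc17a6 and Gad2 are not.

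Of the 10 genes with which the study marked the Ephb1 class, all 9 other than Ephb1 were higher in the members than in the other classes in all 6 libraries. Of all genes at 10 CPM or more, 6.74% were higher and 10.2% lower in all 6 libraries. The list was chosen on these samples and is not independent evidence. Camk4, a calcium and calmodulin-dependent kinase, ranged from 206 to 285 CPM against 107 to 141 CPM. Olfm1, a secreted olfactomedin, ranged from 931 to 1058 CPM against 586 to 736 CPM. Cadm1, an adhesion molecule of synapses, ranged from 382 to 432 CPM against 252 to 294 CPM, and Rprm, reprimo, from 97.9 to 176 CPM against 52.4 to 87.0 CPM. Lmo4, a LIM-only cofactor of transcription, was higher in each library, at 1873 to 2974 CPM against 1201 to 1937 CPM, but its ranges overlapped between libraries. The lists of the neighboring classes, chosen on the same samples, ran the other way: 8 of 9 Prox1 class genes and 9 of 9 Hoxb5 class genes were lower in the members in all 6 libraries. Nrp1, a semaphorin receptor of the Prox1 class list, was the exception, at 198 to 216 CPM against 161 to 237 CPM. Cells over the Prox1 or Hoxb5 limit were left out of the members and counted in the other classes. Lower levels of genes that go with Prox1 or Hoxb5 thus follow in part from the limits. Of the 9 genes of the Sst-high class at postnatal day 5 (P5) that reached 10 CPM at E18.5, 8 were higher in the members in all 6 libraries.

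Many cells lay close to the limits. With the other limits met, 154 members held exactly 3 UMIs of Ephb1 and 210 cells just outside held 2. For Prox1, 63 members held 2 UMIs and 25 cells outside held 3, and for Hoxb5, 29 members held 1 and 19 cells outside held 2. The sum of Hoxb2, Hoxb3 and Hoxb4 was 1 in 62 members and 0 in 239 cells outside, which made this the limit that left out the most cells after Ephb1. The median of Ephb1 in the members was 4 to 5 UMIs per library and the highest cell held 23.

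Beyond the genes of the limits, the 15 highest genes of Ephb1-high cells included a neuropeptide, an adrenergic receptor, a collagen and several secreted proteins. Of 3615 genes at 50 CPM or more, 370 were higher in the members in all 6 libraries (10.2%) and 426 were lower (11.8%), and 18 had a mean log2 ratio over 1. Sst led, with a mean log2 ratio of 1.60 ± 0.28 (SD over 6 libraries, on the log2 scale of CPM + 1), or 3.03-fold. Adra2a, the alpha-2A adrenergic receptor, followed with 1.53 ± 0.35. It stood at 46.6, 46.9 and 61.4 CPM in control members and 54.0, 43.3 and 57.9 CPM in Atoh1S193A/- members, against 11.5 to 27.5 CPM in the other classes. Prox1-high cells held 1.72 to 6.68 CPM of it. Antxr1, a cell surface receptor that binds collagen, was at 41.6 to 70.0 CPM against 13.5 to 25.3 CPM, and Col11a1, a fibrillar collagen chain, at 81.6 to 150 CPM against 38.0 to 69.1 CPM. Sostdc1, a secreted antagonist of BMP and Wnt signaling, was at 68.3 to 96.7 CPM against 21.2 to 55.4 CPM. Spon1, the axon guidance protein F-spondin, was at 73.5 to 103 CPM against 30.5 to 46.3 CPM. Ajap1, an adherens junction protein, St6galnac5, a sialyltransferase, Fam19a1, a secreted peptide, and Gas7, a gene of neurite outgrowth, had mean log2 ratios of 1.28, 1.13, 1.07 and 1.03. Tcerg1l and Wscd1 had 1.26 and 1.16, and Ebf1 and Pcp4 had 1.10 ± 0.19 and 1.14 ± 0.56.

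Slc1a3, a glutamate transporter best known from glia, was among the 15 highest, with a mean log2 ratio of 1.20 ± 0.28 and 50.4 to 83.6 CPM against 18.53 to 37.3 CPM. Of the 5 glia markers at 10 CPM or more it alone was higher in all 6 libraries. The 6 glia markers together summed to 176 to 460 CPM in the members and 145 to 286 CPM in the other classes. The highest sum, in Atoh1S193A/- replicate 3, held 149 CPM of Apoe, most of it from 1 cell. The part of glial RNA in the level of Slc1a3 was not tested.

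The 15 lowest genes included Hoxa5, Hoxc4 and Hoxa4, the homeodomain genes Meis2 and Pbx3, and Zic4. Hoxa5 was at 8.76, 5.79 and 3.19 CPM in control members and 3.26, 0.883 and 8.97 CPM in Atoh1S193A/- members, where the other classes held 214 to 475 CPM, a mean log2 ratio of -5.93 ± 1.00. Hoxb5-high cells, at 213 to 944 CPM, and cells over more than 1 limit, at 503 to 1278 CPM, held most of this. Cells over none of the limits were at 5.14 to 31.8 CPM. Hoxc4 was at 12.4 to 32.9 CPM against 121 to 157 CPM and Hoxa4 at 9.71 to 23.7 CPM against 48.3 to 66.7 CPM. Of the 6 genes among 23 Hox genes of paralog groups 1 to 8 that were not used by the limits and reached 10 CPM, 5 were lower in all 6 libraries. Hoxa3 was the exception, at 36.2 to 65.8 CPM against 50.2 to 65.5 CPM. Since cells over the Hoxb5 limit were left out of the members, lower levels of Hox genes that go with Hoxb5 follow in part from that limit. The TALE homeodomain genes Meis2 and Pbx3, whose proteins bind DNA beside Hox proteins, had mean log2 ratios of -1.74 ± 0.59 and -1.81 ± 0.83. Zic4, a zinc finger factor of the rhombic lip lineage, was at 181 to 303 CPM against 540 to 632 CPM, and Zic1 at 586 to 786 CPM against 1199 to 1433 CPM. Calb2, the calcium-binding protein calretinin, was at 7.18 to 18.6 CPM against 43.7 to 74.1 CPM. Prdm8 and Zbtb20, regulators of transcription, had -1.94 and -1.90, and Nxph1, a neurexin ligand, and Klhl13, a ubiquitin ligase adaptor, had -1.60 each. Prkcb, protein kinase C beta, and Syt4, a synaptotagmin, had -1.33 each, Tenm1, a teneurin, had -1.31 and Lsamp, an adhesion molecule, had -1.23. Over the list of 53 transcription factors of hindbrain neurons, 9 of 42 at 10 CPM or more were higher in all 6 libraries and 16 were lower. Nfib, a nuclear factor I gene, was among the higher, at 2920 to 3527 CPM against 2539 to 2861 CPM.

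When every cell was thinned to 10000 UMIs before the limits were applied, all 30 of these genes kept their direction, as they did without the likely doublets. The genes were chosen for 1 direction in all 6 libraries, so that their direction in the control libraries alone was fixed by the choice. Both other checks used the same reads and are not independent of the choice either. The sizes in controls alone differed, since the make-up of the other 4 classes differed between genotypes or for other reasons not tested. Sostdc1 had 1.68 and Pcp4 1.53, where all 6 libraries gave 1.27 and 1.14, while Hoxa5 was less far apart, at -5.27 against -5.93. Cells chosen on the thinned counts gave ratios of 0.38 for Pcp4, 0.53 for Sostdc1, 1.32 for Sst and -2.68 for Meis2. Slc1a3 then had 0.73, St6galnac5 0.71 and Prkcb -2.12. When the cells were chosen on their raw UMIs and then thinned, Pcp4 had 1.21, Sostdc1 1.26, Sst 1.70 and Meis2 -1.65.

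**Figure D2:**
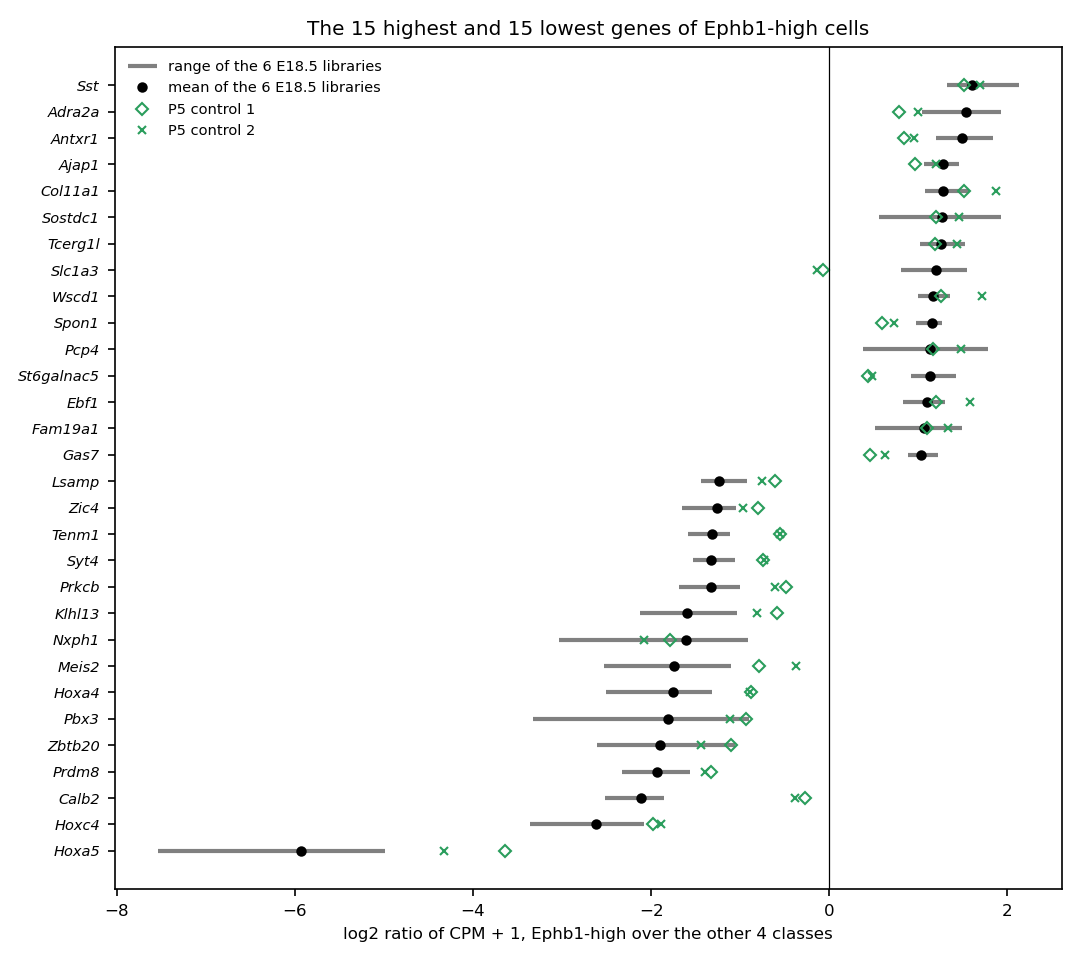
Mean log2 ratio of CPM + 1 in Ephb1-high cells over the other 4 classes for the 15 highest and 15 lowest genes. Black points are means and grey bars ranges of the 6 E18.5 libraries, and green symbols are the 2 P5 control libraries. Each grey bar lies on 1 side of 0 because the genes were chosen so, and the P5 symbols lie on the same side in all genes but Slc1a3.

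The members carried the glutamate transporter gene Slc17a6 at lower levels than the other classes and Slc18a3, a cholinergic gene, at higher levels. Slc17a6, the vesicular glutamate transporter VGLUT2, was at 122, 111 and 122 CPM in control members and 99.3, 87.4 and 108 CPM in Atoh1S193A/- members. Its range in the other classes, 131 to 177 CPM, did not overlap. Slc18a3, the vesicular acetylcholine transporter, was at 22.5, 12.2 and 35.3 CPM in control members and 28.2, 29.1 and 32.7 CPM in Atoh1S193A/- members, against 2.52 to 9.25 CPM in the other classes. Its mean log2 ratio was 1.99 ± 0.27, or 3.97-fold. Chat, choline acetyltransferase, which lies around Slc18a3 in the genome and can share its reads, was at 2.19 to 12.3 CPM against 0.970 to 2.62 CPM. Gad2, a GABA-synthesizing enzyme, was at 15.7 to 42.1 CPM against 29.3 to 68.7 CPM. Slc17a7, VGLUT1, was at 3.64 to 6.18 CPM against 2.80 to 6.71 CPM. The GABA and glycine genes Gad1, Slc32a1 and Slc6a5, and likewise Th and Slc17a8, did not exceed 2.32 CPM in any library. Tph2 had no UMI among 14681170 member UMIs, which allows up to 0.204 CPM. In the list of 12 transmitter genes, 1 of 4 at 10 CPM or more, Slc18a3, was higher in all 6 libraries and 3 were lower. A Gad2 UMI was present in 24.1% of members at 10000 UMIs, in 28.7% of the other classes and in 1.88% of granule lineage cells, and in 35.5% of members before thinning.

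Of the 25 neuropeptide and dense core vesicle genes, Sst and Pcsk2 were higher and 5 were lower among 15 at 10 CPM or more. Pcsk2, a convertase that cleaves prohormones, was at 79.5 to 144 CPM against 61.5 to 110 CPM. The vesicle genes Cpe, which trims peptides, and Chga, a granin, were lower, at 230 to 322 CPM against 327 to 434 CPM and at 70.0 to 84.9 CPM against 88.7 to 102 CPM. The other granins and vesicle proteins overlapped: Scg5 at 149 to 347 CPM, Scg3 at 140 to 155 CPM, Chgb at 89.6 to 117 CPM, Scg2 at 31.8 to 76.7 CPM and Vgf at 15.6 to 25.7 CPM. Adcyap1, the peptide PACAP, was at 31.8 to 47.3 CPM against 27.5 to 42.5 CPM. Crh, corticotropin-releasing hormone, was at 0 to 3.53 CPM in the members and 11.2 to 28.5 CPM in the other classes. Cck, Penk, Grp and Gal were at most 1.16, 2.74, 3.48 and 9.71 CPM in the members. Calca, Pcsk1, Tac1 and Pdyn stayed at or under 3.83 CPM and Vip had no UMI, which allows up to 0.204 CPM. Nts, Cartpt, Tac2 and Npy were each high in the members of 1 library, where at most 3 cells held most of their UMIs.

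Ephb1 belonged to a family of which several receptors were present together. Of 13 other Eph receptors and ephrins at 10 CPM or more, in a list of 22, 4 were higher in the members in all 6 libraries and 3 were lower. The higher genes were the A-class receptors Epha3, Epha4, Epha5 and Epha7. Epha7 was at 120, 110 and 112 CPM in control members and 111, 112 and 109 CPM in Atoh1S193A/- members, above 51.6 to 82.4 CPM in the other classes. Epha5 was at 116 to 246 CPM against 105 to 197 CPM, Epha3 at 89.2 to 117 CPM against 74.7 to 93.3 CPM and Epha4 at 68.9 to 107 CPM against 53.5 to 81.6 CPM, each with overlap between libraries. Among the ligands, Efnb2 was at 4.41 to 12.6 CPM against 9.67 to 20.8 CPM and Efnb3 at 50.5 to 69.1 CPM against 67.0 to 77.4 CPM, and both were lower in all 6 libraries. Epha10, a receptor without kinase activity, was lower as well, at 5.21 to 9.79 CPM against 10.5 to 12.5 CPM. Ephb2, the other B-class receptor at this level, was at 60.1 to 82.4 CPM against 63.2 to 74.3 CPM, and the ligand Efna5 was at 42.3 to 59.2 CPM against 47.3 to 55.8 CPM. Efna2, Efna3, Efnb1 and Epha8 were between 7.51 and 40.5 CPM in the members, and Efna1, Efna4, Ephb3, Ephb4, Ephb6 and Epha6 did not exceed 9.87 CPM. Epha1 and Epha2 had no UMI in any member, which allows up to 0.204 CPM.

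Of 27 other guidance genes at 10 CPM or more, 4 were higher and 6 lower in all 6 libraries. Of all genes at 10 CPM or more, 6.74% were higher and 10.2% lower. This share is to be set beside each list here and above, and some lists lay near it. Sema6a and Sema6d, transmembrane semaphorins, were higher, at 149 to 181 CPM against 129 to 148 CPM and at 140 to 180 CPM against 116 to 145 CPM, and Robo2, a Slit receptor, was lower, at 75.3 to 104 CPM against 151 to 192 CPM. Of 30 glutamate, GABA and glycine receptor subunits, 8 were higher and 8 lower. Gabrg1, a gamma subunit of the GABA-A receptor, was at 276, 370 and 292 CPM in control members and 325, 316 and 310 CPM in Atoh1S193A/- members, against 164 to 187 CPM. Glra2, the fetal glycine receptor subunit, was at 149 to 221 CPM against 90.2 to 116 CPM. Synaptic adhesion molecules were lower in 14 of 27 and higher in 4, among them Cdh8, a classic cadherin, at 97.3 to 126 CPM against 55.1 to 68.1 CPM, and the protocadherin Pcdh10, at 94.4 to 141 CPM against 54.3 to 83.3 CPM. Voltage-gated channels were higher in 3 and lower in 6 of 27, and calcium and calmodulin signaling genes were higher in 3 and lower in 3 of 18. Neuron maturation and cytoskeleton genes were higher in 3 and lower in 5 of 29, with Map1b, a microtubule-associated protein of growing axons, at 6701 to 7887 CPM against 5545 to 6301 CPM. Cell death genes were higher in 3 and lower in 1 of 16. One of the higher was Hrk, an activator of apoptosis, at 43.3 to 73.3 CPM against 23.9 to 41.3 CPM. Genes that the study tied to Atoh1 were higher in 4 and lower in 1 of 7, and immediate early and dissociation genes were higher in 1 and lower in 2 of 13.

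Markers of other cells were summed in the same way, and those of glia, at up to 460 CPM, are given above. Granule lineage markers, which are excitatory rhombic lip neurons too, summed to 131 to 265 CPM and were lower than in the other classes in 3 of 3 genes at 10 CPM or more, which were Reln, Neurod1 and Cbln1. En2 was at 0 by the limits. Inhibitory neuron markers summed to 16.8 to 44.2 CPM and unipolar brush cell markers to 15.2 to 81.1 CPM. Oligodendrocyte lineage markers summed to at most 18.6 CPM, microglia markers to 4.74 CPM, erythroid markers to 10.9 CPM and endothelial markers to 2.32 CPM. Dividing cell markers summed to 5.38 to 80.7 CPM, with the highest value in an Atoh1S193A/- library.

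Within the class, Sst, Ebf1 and Pcp4 divided the members. After each cell was thinned to 10000 UMIs, which left out 2 of the 687 members, a UMI of Sst was found in 55.0% of members, between 47.2% and 59.4% per library. It was found in 19.4% of cells of the other classes and in 4.27% of granule lineage cells, which served as a comparison. The source of the Sst UMIs in granule lineage cells was not tested. Without thinning the shares were 60.4% of members, at a median of 19542 UMIs, and 6.27% of granule lineage cells, at a median of 15708 UMIs. Ebf1 was found in 76.6% of members, 54.7% of the other classes and 64.9% of granule lineage cells. Pcp4 was found in 32.7%, 22.4% and 18.8% of the same cells. The share of cells with a UMI of Ebf1 or Pcp4 thus differed less than that of Sst from the share in granule lineage cells.

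A UMI of each of the 3 genes was found in 20.4% of members, between 15.9% and 25.4% per library, and in 5.2% of cells of the other classes. None of the 3 was found in 84 members, or 12.3%, and in 33.0% of cells of the other classes. The Sst count varied between members: 45% of members had no UMI, 15.8% had 1 or 2, 21% had 3 to 9 and 18.2% had 10 or more, and the highest cell had 48. The tenth of members with the most Sst held 54.3% of all its UMIs, and for Pcp4 this share was 78.4% and for Ebf1 49.3%. Among 3462 genes ranked by variance over mean, Pcp4, Sst and Ebf1 took places among the first 10, with medians of 19, 14.9 and 14.1 over the 6 libraries. The others were Malat1 and Meg3, which are nuclear noncoding RNAs, Tmsb4x, Tuba1a and Nnat, genes of young neurons, Syt4, and the mitochondrial gene mt-Atp6.

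**Figure D3:**
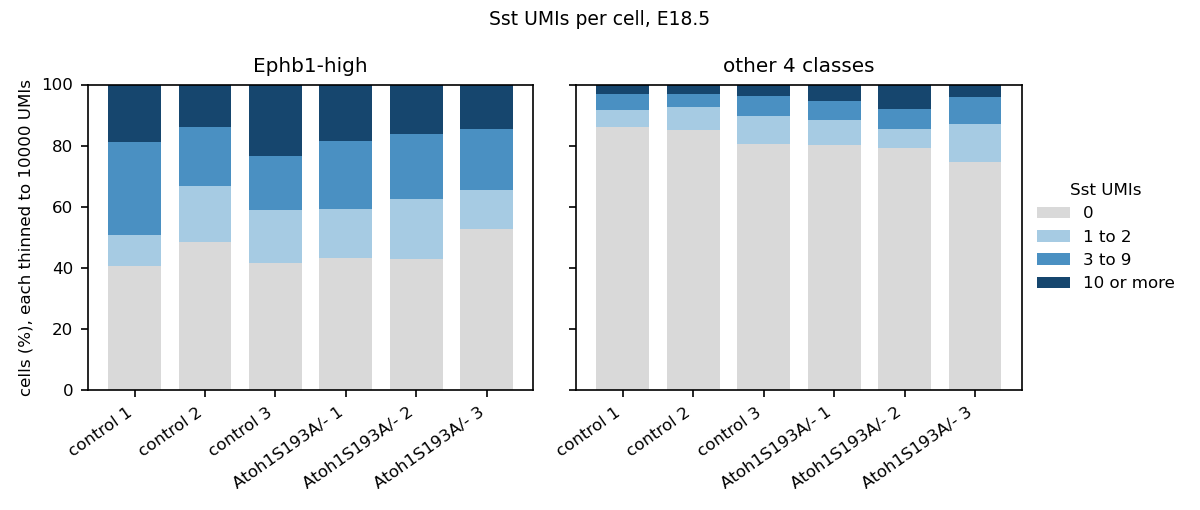
Share of cells (%) by their number of Sst UMIs, each cell thinned to 10000 UMIs, in Ephb1-high cells and in the other 4 classes of each E18.5 library. Cells with 3 or more Sst UMIs make up a larger part of the Ephb1-high cells than of the other classes in each library.

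Members rich in Sst differed from those without it in other genes too. This is a description, since the cells were grouped by 1 of their own genes. Against the 308 thinned members with no Sst UMI, the 269 members with 3 or more held more Pcp4, at a median of 450 against 47.2 CPM over libraries and a mean log2 ratio of 3.01 ± 0.75. They held more of Rprml and Rprm, the reprimo genes, at 73.0 against 15.7 CPM and 243 against 50.8 CPM, more Fam19a1, at 114 against 28.4 CPM, more Igfbp5, which binds insulin-like growth factors, at 57.4 against 18.4 CPM, and more Adra2a, at 75.2 against 23.9 CPM. They held less Zic4, at 147 against 346 CPM, less Ntrk3, the neurotrophin-3 receptor, at 52.3 against 108 CPM, less Kcna2, a potassium channel, at 18 against 54.2 CPM, less Meis2, at 21.6 against 49.8 CPM, and less Cbln1, a synaptic organizer, at 29.1 against 56.3 CPM. Of 3664 genes, 214 were higher and 165 lower in all 6 libraries. Adra2a, Fam19a1 and Pcp4 were also among the 15 genes highest in the members against the other classes, and Zic4 and Meis2 among the 15 lowest.

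The share of Ephb1-high cells was compared between genotypes next, with the embryo as the replicate. Ephb1-high cells were 20.7%, 24.0% and 24.6% of the differentiated pontine neurons in control libraries and 35.1%, 23.9% and 24.0% in Atoh1S193A/- libraries. The means were 23.1% ± 2.07 and 27.7% ± 6.44 (SD, n = 3 libraries per genotype), and the groups overlapped. The difference of 4.60 percentage points was not past the threshold (limma on logit shares, adjusted p = 0.383 over 5 classes, two-sided exact permutation p = 0.5, where 3 against 3 cannot go below 0.1). Atoh1S193A/- replicate 1 carried it: without that library the difference was 0.889 points. When cells were thinned to 10000 UMIs before the limits were applied, it was 7.78 points and passed (limma adjusted p = 0.0394, exact permutation p = 0.1). Among all kept cells, Ephb1-high cells made up 0.856%, 0.984% and 2.03% in controls and 1.38%, 0.677% and 1.46% in Atoh1S193A/- libraries. These means were 1.29% ± 0.642 and 1.17% ± 0.431, again with overlap (limma adjusted p = 0.887, exact permutation p = 0.8).

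The ratio of Ephb1-high to Prox1-high cells, in contrast, differed beyond the spread of the libraries. It was 1.15, 1.35 and 1.52 in controls and 3.57, 3.56 and 3.71 in Atoh1S193A/- libraries, without overlap. The ratio was 2.72-fold higher in Atoh1S193A/- embryos, a difference of 1.44 on the log2 scale (limma on the difference of the logit shares, adjusted p = 0.00111 over the 4 classes compared with Ephb1-high cells, exact permutation p = 0.1, the lowest possible). The Prox1-high share moved with it, from 17.3% ± 0.988 to 7.68% ± 1.88 of differentiated pontine neurons (limma adjusted p = 0.000169, exact permutation p = 0.1). In these counts the Prox1-high share moved more than the Ephb1-high share, whose groups overlapped. With cells thinned before the limits, Ephb1-high shares were 7.14, 11.5 and 13.9% in controls and 22.0, 18.8 and 15.2% in Atoh1S193A/- libraries, without overlap. Counted with the cells over other limits too, cells at the Ephb1 limit went from 29.3% to 36.3% on average. Shares of 1 total are not independent, and the part of each class in the ratio was not tested. The study had reported a fall of its Prox1-marked class in the same mutant embryos. Ephb1-high cells per Hoxb5-high cell overlapped between genotypes. The counts were 69, 93 and 185 beside 40, 42 and 104 in controls, and 157, 57 and 126 beside 48, 33 and 88 in Atoh1S193A/- libraries. Counted with the cells that were over other limits too, cells at the Prox1 limit were 30.0, 24.7 and 27.6% in controls and 21.5, 19.7 and 15.8% in Atoh1S193A/- libraries, a mean difference of -8.45 points against the 17.3% to 7.68% of the exclusive class (exact permutation p = 0.1). With littermate pairs as a block, the ratio kept its call (limma adjusted p = 0.0398). With cells thinned to 10000 UMIs before the limits were applied, controls held 9, 25 and 52 Ephb1-high beside 17, 22 and 39 Prox1-high cells, and Atoh1S193A/- libraries 45, 21 and 45 beside 17, 4 and 11. The difference was then 2.05 on the log2 scale (limma adjusted p = 0.00414, between 0.000316 and 0.0398 over the alternatives fitted, exact permutation p = 0.1). When cells over several limits were also counted in each class, the controls stood at 0.910 to 1.18 and the Atoh1S193A/- libraries at 1.74 to 2.04 (exact permutation p = 0.1). Fewer cells of the Prox1 class and less Prox1 RNA per cell cannot be told apart in these counts.

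**Figure D4:**
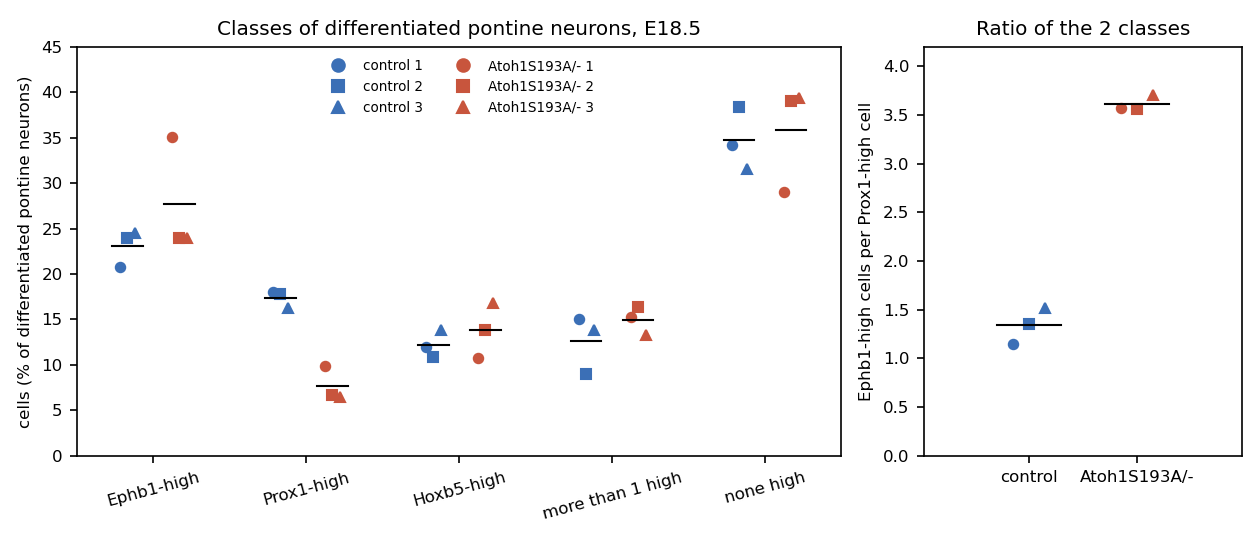
Left, share of each class among differentiated pontine neurons (%) per E18.5 library, and right, Ephb1-high cells per Prox1-high cell, with both axes starting at 0. Points are libraries, blue for control and red for Atoh1S193A/-, and bars are means of 3 libraries. Ephb1-high shares overlap between genotypes, while the ratio is 1.15 to 1.52 in controls and 3.56 to 3.71 in Atoh1S193A/- libraries.

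Within Ephb1-high cells, no gene passed the test between genotypes across all genes. Of 10197 genes detected in 10% or more of the members of either genotype, 0 (0.0%) passed an adjusted p of 0.05 and a log2 change of 0.25 in edgeR's quasi-likelihood test, and 327 had an unadjusted p under 0.05, with 160 higher and 167 lower in Atoh1S193A/- members. DESeq2 also called 0, with 87 under an unadjusted p of 0.05. Without the filter on low counts, 46 of 18517 genes were called by edgeR. The 3 Atoh1S193A/- libraries stood above the 3 controls in 4.17% of the genes and below them in 4.04%. Since the numbers were taken to pair littermates, a fit with the pair as a block was also made, and it called 5 genes (0.049%), of which 2 were higher and 3 lower. These 5 are named because they were called in that fit, so that they were chosen after their values were seen.

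Igfbp5 was at 65.7, 57.9 and 52.6 CPM in control members and at 35.3, 33.5 and 34.5 CPM in Atoh1S193A/- members. The groups did not overlap, and the log2 change was -0.75 ± 0.13 (SE; edgeR quasi-likelihood, adjusted p = 0.357 without and 0.0310 with the pair block, between 0.000551 and 1.00 over 15 alternatives). Tgfb2, a growth factor of the TGF-beta family, was at 58.1, 44.0 and 36.6 CPM in controls and 18.1, 22.9 and 24.7 CPM in Atoh1S193A/- members, again without overlap. Its log2 change was -1.07 ± 0.19 (edgeR, adjusted p = 0.357 without and 0.0288 with the block, between 1.65e-06 and 1.00 over alternatives). The change of Igfbp5 went to -0.32 when cells were thinned and that of Tgfb2 to -0.53 when 2 UMIs of Ephb1 sufficed. Meis2 was at 112, 34.8 and 53.9 CPM in controls and 18.4, 12.4 and 42.6 CPM in Atoh1S193A/- members, lower in each pair but with overlap between the groups. Its log2 change was -1.36 ± 0.38 (edgeR, adjusted p = 1.00 without and 0.0310 with the block, between 9.18e-15 and 1.00 over alternatives), and was -0.88 without control replicate 1 and -0.55 when cells were thinned. The other 4 classes, pooled, went the same way. Meis2 was listed as a marker of the Prox1 class, whose share was lower in Atoh1S193A/- libraries. The make-up of the pool and the level per cell thus cannot be told apart there. A Meis2 UMI was in 48.1, 40.6 and 39.7% of the thinned cells of the pool in controls and 29.4, 19.8 and 29.8% in Atoh1S193A/- libraries. This was not tested. Adgrl2, a latrophilin adhesion receptor, was at 302, 325 and 324 CPM in controls and 407, 419 and 420 CPM in Atoh1S193A/- members, a log2 change of 0.39 ± 0.09 (edgeR, adjusted p = 1.00 without and 0.0365 with the block, between 0.0338 and 1.00 over alternatives). In the other 4 classes Adgrl2 ranged from 319 to 467 CPM. The log2 ratio of the members to them was -0.10 ± 0.07 (SD over 6 libraries), so that the other classes varied along with the members. Whether the change of Adgrl2 was particular to the members was not tested. The fifth gene, Apoe, a lipid carrier of glia, rested on 1 cell: 300 of the 333 UMIs in the members of Atoh1S193A/- replicate 3 came from it, and without that library the log2 change was 0.57 in place of 3.52.

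**Figure D5:**
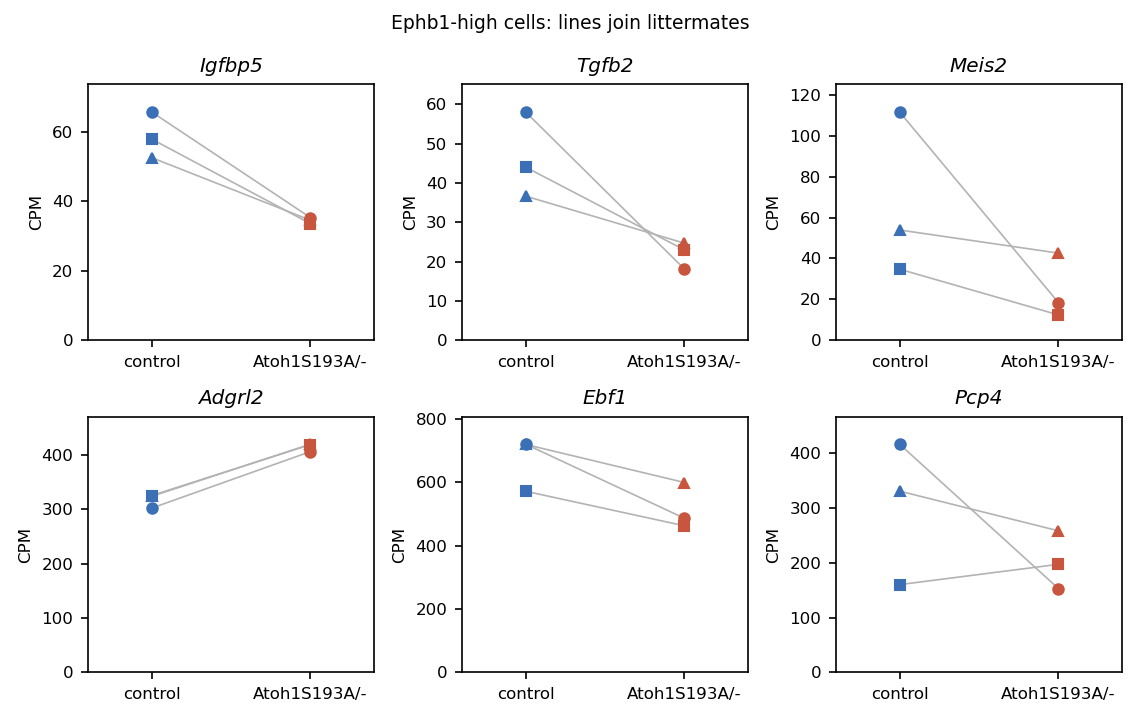
Level of 6 genes (CPM of summed UMIs, linear axis from 0) in Ephb1-high cells of the 3 control and 3 Atoh1S193A/- libraries at E18.5, with lines between littermates. In each pair the Atoh1S193A/- library is lower for Igfbp5, Tgfb2, Meis2 and Ebf1 and higher for Adgrl2, while Pcp4 is lower in 2 of the 3 pairs.

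The genes that mark the class were not called between genotypes, although the fit without the filter on low counts called Ebf1 and Pcp4 (edgeR adjusted p = 0.0320 and 1.53e-05). Ebf1 had a log2 change of -0.37 ± 0.12 (edgeR, unadjusted p = 0.00593, adjusted p = 1.00, and 0.0509 with the pair block), with 486, 463 and 599 CPM in Atoh1S193A/- members against 720, 572 and 719 CPM in controls. Pcp4 had -0.58 ± 0.25 and Sst -0.25 ± 0.16, both with overlap between the groups. The change of Pcp4 was -0.33 without control replicate 1 and -0.87 without control replicate 2, and that of Sst -0.13 without control replicate 3 and -0.45 without control replicate 2. In thinned cells Pcp4 had -1.21, Sst -0.06 and Ebf1 -0.63. Slc18a3 had 0.23 ± 0.27, Camk4 0.05 ± 0.13 and Epha7 -0.04 ± 0.09. Slc17a6 had -0.26 ± 0.10 and Gad2 0.72 ± 0.22, and neither passed, although Gad2 did without that filter (edgeR adjusted p = 0.0224). The change of Gad2 was 0.39 without control replicate 3, 0.98 without control replicate 2 and 1.37 in thinned cells, where Slc17a6 had 0.04. The direction of Gad2 was the same in the other 4 classes pooled, although the make-up of that pool differed between genotypes. A Gad2 UMI was in 25.4, 26.4 and 18.6% of thinned cells of the other 4 classes in controls and 39.9, 38.4 and 34.7% in Atoh1S193A/- libraries. This was not tested. In the edgeR fit with the filter and without the pair block, 0 of the tested genes were called in any of the 27 lists, while without the filter members of the lists were called, Ebf1, Pcp4, Gad2, Hrk, Sparcl1 and Meis2 among them. The median log2 change of the 10 genes of the Ephb1 class was 0.02, of the 16 tested Eph and ephrin genes -0.05, of the 11 tested peptide genes -0.08, of the 42 tested transcription factors 0.05 and of the 18 tested cell death genes 0.00, beside 0.00 over all genes. Other lists lay further from 0. The median of the glia markers was 0.52, with 3 of 5 tested genes higher at an unadjusted p under 0.05 (edgeR) and 2 above all controls, and these markers summed to 225, 176 and 213 CPM in control members and 270, 193 and 460 CPM in Atoh1S193A/- members. Of the 460 CPM, in Atoh1S193A/- replicate 3, Apoe made up 149 CPM, with 300 of its 333 UMIs in 1 cell. The part of the glia markers in the other differences was not tested. The median of the 8 tested Atoh1-related genes was 0.16, with 3 higher and 1 lower at that p, and that of the 13 tested dissociation response genes 0.13, with 2 higher. The median of the 9 tested markers of the P5 Sst-high class, a list the study chose on libraries of this series, was -0.19, with 3 lower. Hrk had 0.53 ± 0.12 and Slc1a3 0.48 ± 0.11, neither of them called (edgeR, adjusted p = 1.00 for both), although Hrk was called without that filter (adjusted p = 0.0338).

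The same limits were applied to the other ages of the series. The P5 libraries came from microdissected pontine nuclei pooled from several pups each, not from the whole hindbrain of 1 embryo. At P5, in 2 control libraries, 2051 and 1176 cells met them, 42.0% (95% exact Clopper-Pearson interval 40.6 to 43.4) and 40.3% (38.5 to 42.1) of differentiated pontine neurons. These intervals cover counting error only. Sst was at 926 and 1105 CPM in these cells, against 105 and 79.3 CPM in Prox1-high cells and 498 and 502 CPM in cells over none of the limits. Pcp4 was at 1642 and 1615 CPM against 733 and 577 CPM in the other 4 classes, and Ebf1 at 391 and 352 CPM against 170 and 117 CPM. Pnoc, which encodes the peptide nociceptin, was at 67.5 and 74.1 CPM at P5 and at 0 to 3.48 CPM at E18.5. Camk4 was at 488 and 456 CPM against 298 and 254 CPM, and Slc18a3 at 39.4 and 49.96 CPM against 14 and 11.4 CPM. Of the 15 genes highest at E18.5, 14 were higher than in the other classes in both P5 libraries, beside 50.1% of all 3615 genes, and all 15 lowest genes were lower, beside 35.7%. Slc1a3 was the exception, with log2 ratios of -0.07 and -0.14. Calb2 kept its direction but at -0.27 and -0.39, where it had -2.11 at E18.5. These ratios are against the other 4 classes pooled, and single classes did not all lie on the same side. Hoxa4 was at 16.1 and 17.0 CPM in P5 members, with 58.2 and 56.4 CPM in Hoxb5-high but 7.70 and 13.0 CPM in Prox1-high cells. Meis2 was at 17.5 and 19.8 CPM, with 90.7 and 80.7 CPM in Prox1-high but 7.13 and 6.45 CPM in Hoxb5-high cells. In P5 control 1, Spon1 was at 98.1 CPM in members and 106 CPM in Prox1-high cells. The P5 libraries were deeper per cell, with member medians of 31863 and 36240 UMIs, so that age, tissue, pooling and depth cannot be told apart in the shares at the 2 ages.

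At E14.5, in 3 control and 3 Atoh1S193A/- libraries, between 14 and 60 cells met the limits, 4.14% (interval 2.28 to 6.85) to 12.7% (9.82 to 16.0) of differentiated pontine neurons. In these few cells Sst was between 28.5 and 576 CPM, with a median of 261 CPM, Ebf1 between 257 and 818 CPM and Pcp4 between 72.4 and 324 CPM. Camk4 was between 17.1 and 29.8 CPM and Adra2a between 5.19 and 12.9 CPM, below each E18.5 library. Antxr1 did not exceed 3.89 CPM. Of the genes lowest in the E18.5 members, Meis2 was between 851 and 1515 CPM in these cells, Pbx3 between 303 and 374 CPM and Hoxa5 between 39.3 and 93.4 CPM. Each was above all 6 E18.5 libraries, where the members held at most 112, 20.9 and 8.97 CPM, so that the cells that met the limits at the 2 ages differed in these genes. Whether they are the same class was not tested. Levels at different ages come from different embryos and libraries and were not tested against each other.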

How the data were processed

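Per the labels and the methods of the study, sorted cells were prepared with the 10x 3' v3.1 chemistry and aligned by the authors with Cell Ranger 5.0.1 to mm10 with a WPRE sequence added. The deposited values are raw UMI counts per gene and barcode, not normalized. Cells with at least 1000 genes and under 10% mitochondrial UMIs were kept, and members were selected on raw UMIs as the report states. The members and the gene lists were chosen with earlier results of these data known. UMI counts of members were summed per library. The E18.5 libraries held 108239001 to 183911797 UMIs, and for a gene without a UMI, 3 counts were taken as the limit. Levels are CPM of these sums.

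Genotypes were compared over libraries with edgeR 4.0.16 (glmQLFit, TMM, genes detected in 10% or more of the members of either genotype, Benjamini-Hochberg adjusted p under 0.05 and absolute log2 change over 0.25) in R 4.3.3, and shares with limma 3.58.1 on logits with 0.5 cells added, beside two-sided exact permutation tests. This follows the thresholds of the study, which tested single cells with MAST. Python 3.11.15 with scanpy 1.11.5 read the files and ran Scrublet. The edgeR fit between genotypes was tested on simulated counts, which held no pair effect. Class differences are log2 ratios of CPM + 1 per library, with no test. Granule lineage cells held at least 1 Barhl1 UMI, at least 2 of En2 and none of Hoxb2, Hoxb3 and Hoxb4.

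Named genes were the given markers and genes of the limits, the 15 highest and 15 lowest at 50 CPM or more among those with 1 direction in all 6 libraries, the 10 of largest variance over mean, up to 4 per list by level and every transmitter, peptide and Eph gene, except 1 gene that is not reported here. Genes named outside this rule were chosen after their values were seen. They are the 5 called with the pair block, Zic1, Cdh8, Pcdh10, Robo2, Sema6a and Sema6d, Map1b, Nfib, Slc18a3 with its class values, and the genes of the Sst-rich cells.

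The labels' protocol states that each mutant was collected with a littermate control in 3 independent replicates, so that same-numbered libraries were taken as littermates. Their deviations from the genotype means correlated at 0.361, 0.212 and 0.558 over 4979 genes, each highest with its own number. Per the study, the embryos of replicates 1 and 2 were male and those of replicate 3 female. The correlations thus do not separate litter from sex in replicate 3, or from other things that a pair shared. Alternatives were a 5% mitochondrial limit, removal of the 7.5% of cells with the highest Scrublet scores, thinning to 10000 UMIs, Ephb1 limits of 2 and 4 UMIs, DESeq2 1.42.0 and its size factors, other low-count filters, the pair block and leaving out each library. Counting cells over several limits in each class was an alternative chosen after seeing the data. The study used another mitochondrial limit and clusters, so that its classes need not hold the same cells.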

Additional observations from a re-analysis of the deposited data

How the results depend on the processing

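Without the filter on low counts, 46 genes were called between genotypes (17 higher, 29 lower, of 18517 tested by edgeR's quasi-likelihood test), and with the replicate block of littermate pairs, 5 were called (2 higher, 3 lower). The causes were not tested. The block changed no other call: the ratio of Ephb1-high to Prox1-high cells kept its call, and the shares of Ephb1-high cells stayed uncalled (limma adjusted p = 0.450 among differentiated neurons and 0.760 among kept cells). When cells were thinned to 10000 UMIs, which admitted fewer cells, the share among differentiated pontine neurons differed by 7.78 percentage points, from 10.9% to 18.6%, and passed the threshold (limma adjusted p = 0.0394, between 0.0394 and 0.722 over the alternatives, exact permutation p = 0.1, the lowest possible). With each library left out in turn, this share difference ranged from 0.889 to 6.48 points, that among all kept cells from -0.332 to 0.253 points, and that of the log2 ratio from 1.34 to 1.54, while the count of called genes was 0 in each of these fits. The difference among kept cells changed sign without control replicate 3, at 0.253 points, without Atoh1S193A/- replicate 2, at 0.133 points, and with cells thinned to 10000 UMIs, at 0.164 points (0.403% in controls, 0.567% in Atoh1S193A/- libraries), and was not called in any fit. With members chosen on raw UMIs, as a share of kept cells of at least 10000 UMIs, controls had 0.942, 1.39 and 2.53% and Atoh1S193A/- libraries 1.65, 0.889 and 2.49%, whose mean was also higher. This was not tested. Counting cells over several limits, chosen after seeing the data, gave a log2 ratio difference of 0.84. The depth of the smallest library, with 57 members and 1132818 UMIs, puts a gene without a UMI there at up to 2.65 CPM.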

Other observations

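Several peptide genes reached a high level in the Ephb1-high cells of 1 library only, and there at most 3 cells held most of their UMIs. Nts, neurotensin, was at 190 CPM in Atoh1S193A/- replicate 1 and at most 11.0 CPM in the other libraries, and 1 of 157 cells held 363 of its 640 UMIs. Nts was also high outside the members of that library: at 109 CPM in the other 4 classes, against 10.9 to 34.2 CPM in the other libraries, and with a UMI in 19.6% of those cells thinned to 10000 UMIs, against 4.51 to 7.34% in the other libraries. The members had one in 12.1% of cells there and in at most 8.7% elsewhere. The part of that library-wide level in the members' value was not tested. Cartpt was at 57.4 CPM in Atoh1S193A/- replicate 3 and at most 11.5 CPM elsewhere, with 70 of 128 UMIs in 1 cell. Tac2, a tachykinin, was at 41.1 CPM in control replicate 1 and at most 1.35 CPM elsewhere, with 73 of 75 UMIs in 1 cell. Npy, neuropeptide Y, was at 37.6 CPM in control replicate 2 and at most 0.897 CPM elsewhere, with all 65 UMIs in 1 of 93 cells. These genes were chosen after their values were seen. The identity of these cells was not tested.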
